A study of Homo sapiens with 8 samples.

Results

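The SLC25 genes encode the mitochondrial carrier family. The carriers compared here are the genes whose symbol is SLC25A followed by a number and whose mean normalized count over the 8 libraries was at least 10, which left 43 of the 48 such symbols in the table, out of 17194 genes at that level and 58884 in all. They were measured by sequencing poly(A)-selected RNA of C4-2 cells, a human prostate cancer line that was derived from LNCaP, grows without androgen and was kept in medium with serum. Of the 8 libraries, 4 came from cells given 1 µM DTHIB, also called E12, for 48 h; the labels call it an inhibitor that acts directly on HSF1, the heat shock transcription factor. The other 4 came from cells given the solvent DMSO for the same time. All samples are 1 cell line without an engineered change named in the labels. Whether replicates were separate cultures is not in the labels, and the p-values below therefore reflect the spread between libraries alone, which may be technical.

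Carriers of this family sit in the inner mitochondrial membrane, apart from a few in peroxisomes or the outer membrane. Each moves a small molecule such as ADP, phosphate, citrate, an amino acid or a cofactor between the cytosol and the matrix, usually in exchange for another. They are made from nuclear genes and inserted through the TIM22 import route, so their transcripts are measured with those of other nuclear genes. In prostate epithelium, which is known for exporting citrate, the citrate carrier SLC25A1 is the route of citrate out of the matrix.

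In DTHIB-treated cells 20 of the 43 carriers fell and 7 rose, by limma with Benjamini-Hochberg adjustment over all 17194 genes at an adjusted p under 0.05. Over all genes tested 33.7% fell and 31.0% rose, 64.6% in either direction, against 27 of 43 carriers in either direction (62.8%). The share of carriers that changed was therefore close to the background, and the share that fell was 46.5%. Most changes were small. Only 5 changed carriers moved at least 1.5-fold (11.6%, against 20.3% of all genes) and 2 at least 2-fold (4.65%, against 7.96%). The median log2 fold change, DTHIB minus DMSO, on the scale log2(normalized count + 1), was -0.14 over the carriers and -0.0051 over all genes. The largest rise was that of SLC25A27, a member of the uncoupling protein branch. The 4 values of each group did not overlap in 29 carriers (67.4%, against 57.9% of all genes), with DTHIB below in 23 (against 30.8%) and above in 6 (against 27.1%).

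**Figure D1:**
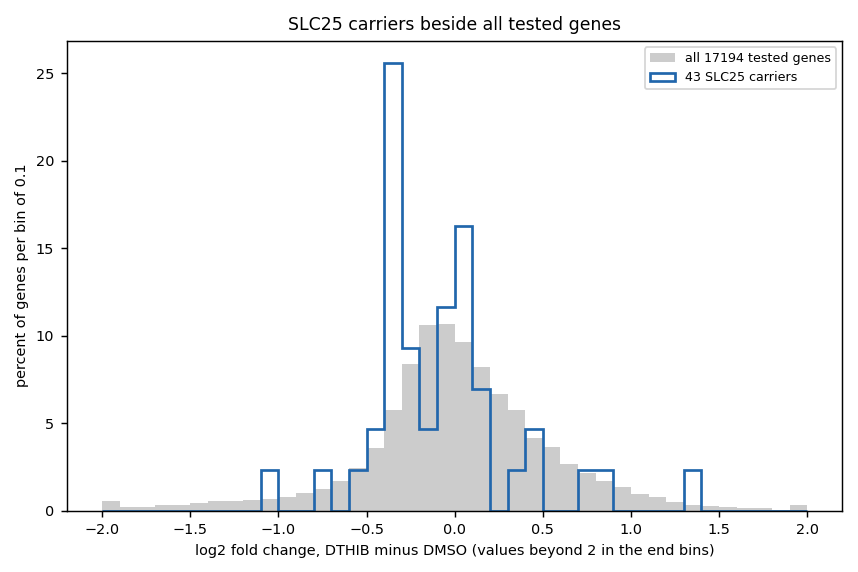
Log2 fold change, DTHIB minus DMSO, of the 43 carriers (blue outline) and of all 17194 tested genes (grey), as percent of genes per bin. The tallest bin of the outline lies within the band from -0.4 to -0.25, which was chosen after its values were seen. The outline is lower in the rest of the band. That band holds 14 carriers (32.6%), against 9.63% of all genes.

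Libraries held 27229291 to 30926053 counted reads. The 43 carriers held 96 to 140677 reads each over the 8 libraries, and 7 held fewer than 1000, so those 7 have the largest counting error. Of the markers of the cell type, all 9 luminal prostate genes were present, KLK3 at 66682 normalized counts in DMSO and 93753 in DTHIB. The defining markers of basal epithelium (KRT5, TP63), of blood (PTPRC, CD3E) and of fibroblasts (DCN, LUM) had at most 2.996 normalized counts in any library. Summed over each list, basal markers had 35.1 to 52.1 in the DMSO libraries and 26.0 to 31.3 in DTHIB, stromal markers 1647 to 1889 and 1939 to 2151, blood markers 28.0 to 43.1 and 23.9 to 41.9, neuroendocrine markers 52.1 to 67.0 and 76.1 to 89.9, and luminal markers 216149 to 220554 and 263517 to 269377. Their part in the results was not tested. Libraries are bulk samples, in which fewer cells of a type and less RNA per cell cannot be told apart, and a normalized count is relative to the other RNA of its library.

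Carriers for adenine nucleotides and phosphate serve ATP synthesis, importing ADP and phosphate to the matrix and exporting ATP. Of 7 tested, 3 fell and 1 rose, beside 33.7% of all genes that fell and 31.0% that rose. The adenine nucleotide carrier SLC25A5 (ANT2, the isoform of growing cells) had 16799, 16593, 17958 and 17010 normalized counts with DMSO and 13913, 12597, 14586 and 12927 with DTHIB. Every DTHIB library lay below every DMSO library, and the log2 difference was -0.34 (SE 0.041; limma adjusted p = 1.2e-06). SLC25A4 (ANT1, the isoform of heart and muscle) had 3306, 3328, 3450 and 3324 in DMSO and 2593, 2498, 2622 and 2563 with DTHIB, again without overlap, with a log2 fold change of -0.38 (SE 0.030). The phosphate carrier SLC25A3 had 17399, 17046, 17831 and 17320 in DMSO and 17925, 17009, 18160 and 17178 with DTHIB. Those values overlapped, and its log2 fold change of 0.01 (SE 0.029) did not pass the test (limma adjusted p = 0.696), except with the dependence on length and GC content regressed out (0.07; limma adjusted p = 0.0312).

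SLC25A6 (ANT3) could not be compared. It held 33 reads over the 8 libraries, with 0.957 to 9.38 normalized counts per library, and its mean of 4.15 put it below the limit of 10. The gene lies at chromosome X, 1386152 to 1392724 (GRCh38, GENCODE 29), in the pseudoautosomal region, where the annotation holds a second copy on chromosome Y. How reads that map to both copies were counted was not given in the sources used here, and this value is no measure of its level. SLC25A41, just inside the limit with a mean of 11.9, had a log2 fold change of 0.41 (SE 0.32) that did not pass. The remaining symbols below the limit were SLC25A2 (1 read), SLC25A31 (0 reads, which allows up to 3 in all), SLC25A47 (17 reads) and SLC25A52 (17 reads).

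The calcium-regulated carriers of ATP-Mg for phosphate moved apart. SLC25A23 rose from 3658, 3706, 3811 and 3826 normalized counts to 4260, 3981, 4211 and 4124, a log2 difference of 0.14 (SE 0.031; limma adjusted p = 0.00057). SLC25A24 fell from 2008, 2019, 2056 and 1984 to 1554, 1513, 1684 and 1466, a log2 fold change of -0.38. In both genes the groups did not overlap. SLC25A25 had a log2 fold change of -0.06 that did not pass.

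**Figure D2:**
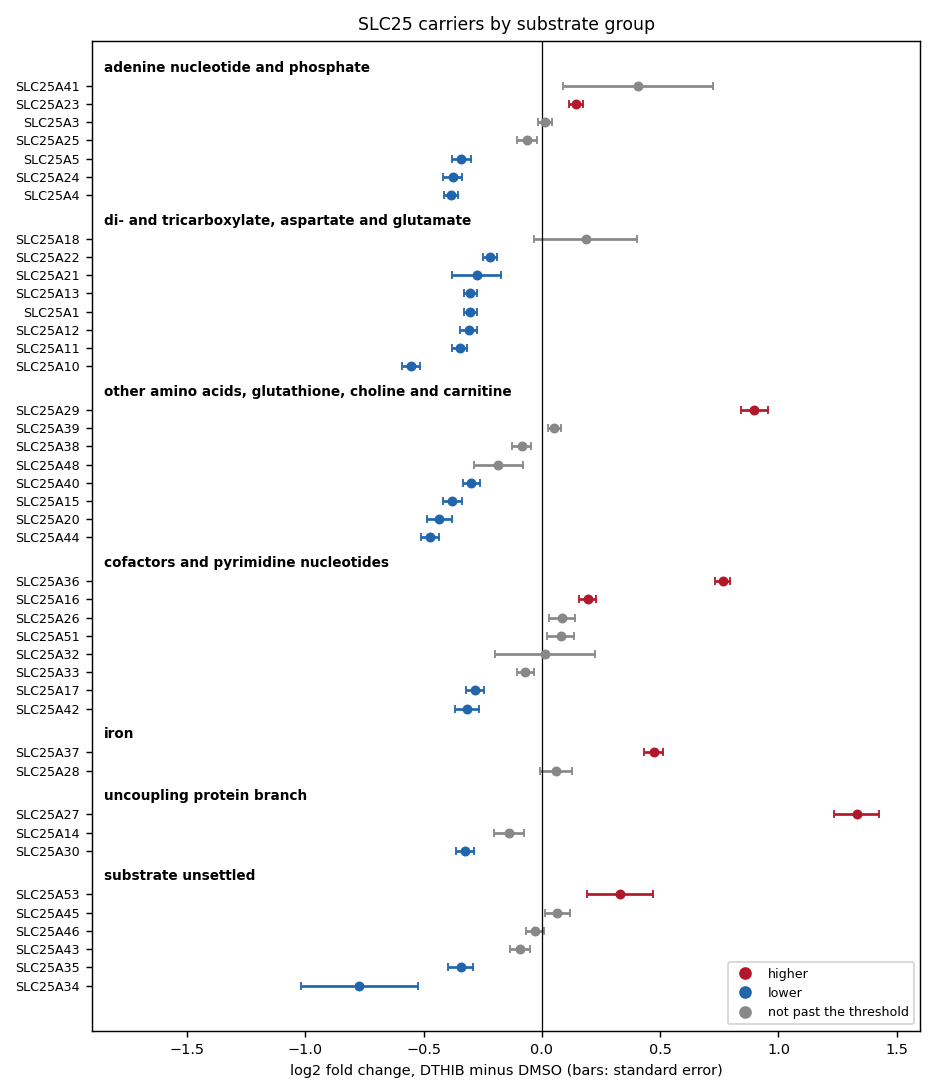
Log2 fold change, DTHIB minus DMSO, of 42 tested carriers, grouped by what it carries; bars are standard errors of the fit over 4 libraries per group. Blue points fell, red points rose and grey points did not pass the threshold; in the carboxylate, aspartate and glutamate group 7 of 8 points are blue.

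Carriers of di- and tricarboxylates, aspartate and glutamate link the citrate cycle with the cytosol, and SLC25A11, SLC25A12 and SLC25A13 are the carriers of the malate-aspartate shuttle, which brings reducing equivalents into the matrix. Of 8 tested, 7 fell and 0 rose, beside 33.7% of all genes that fell and 31.0% that rose, and the median of their log2 fold changes was -0.30. The dicarboxylate carrier SLC25A10 had 1557, 1645, 1692 and 1607 normalized counts with DMSO and 1098, 1079, 1142 and 1105 with DTHIB. The groups were well apart, with a log2 difference of -0.55 (SE 0.038; limma adjusted p = 1.1e-09). The 2-oxoglutarate/malate carrier SLC25A11 fell from 5091, 5238, 5269 and 5208 to 4261, 3872, 4154 and 4085, a log2 fold change of -0.35 (SE 0.032). The citrate carrier SLC25A1 fell from 5493 ± 80.8 to 4453 ± 94.0 (SD, n = 4 libraries per group), a log2 fold change of -0.30. The aspartate-glutamate carriers SLC25A12 and SLC25A13 fell from 1209 ± 25.1 to 975 ± 12 and from 3615 ± 86.3 to 2931 ± 32.9, log2 fold changes of -0.31 and -0.30. The glutamate carrier SLC25A22 fell from 3295 ± 68.7 to 2830.5 ± 85.1 (-0.22), while its paralog SLC25A18, with 31.3 ± 8.93 normalized counts with DMSO and 35.2 ± 7.09 in DTHIB (SD, n = 4), did not pass. SLC25A21, which carries 2-oxoadipate and 2-oxoglutarate, had 119.7 ± 8.65 in DMSO and 98.7 ± 6.16 in DTHIB; its fall (-0.28, limma adjusted p = 0.0258) was lost in 4 of 8 fits without 1 library (without DMSO replicate 2 or 3, or DTHIB replicate 1 or 4; adjusted p up to 0.0879), with DESeq2 (adjusted p = 0.0933) and with length and GC content regressed out (adjusted p = 0.221).

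RefSeq promoter windows (GRCh38.p14, 250 bases before to 50 after the start) were present for 36 tested carriers and searched on both strands for 3 motifs. TGATGNAA, the core of the C/EBP-ATF response element, was in 1 of 36 (2.78%, against 3.67% of 27305 promoters), the heat shock element pair TTCNNGAA in 2 of 36 (5.56% against 7.84%), and the NRF1 motif in 3 of 36 (8.33% against 6.28%). The shares are near those of all promoters, and none of the 5 windows of carriers that rose held any of the 3 motifs. The window of SLC25A11, which fell, held a core of the first motif and an NRF1 motif, both on the opposite strand; it is shown as the only window of a changed carrier with a match, from 101 bases before the start to the last base before it (chr17:4940047-4940147, minus strand), with the matches in capitals. A match is a description of letters, not a binding site.
SLC25A11: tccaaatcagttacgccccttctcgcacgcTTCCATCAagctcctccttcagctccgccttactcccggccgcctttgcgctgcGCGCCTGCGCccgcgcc

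Of 8 tested carriers of other amino acids, glutathione, choline and carnitine, 4 fell and 1 rose, beside 33.7% and 31.0% of all genes. SLC25A29, which carries the basic amino acids arginine and lysine, had 922, 832, 827 and 784 normalized counts with DMSO and 1434, 1731, 1534 and 1579 with DTHIB. All DTHIB values stood above all DMSO values, and the log2 difference was 0.90 (SE 0.057; limma adjusted p = 4.1e-10). The ornithine carrier SLC25A15, which serves the urea cycle and ornithine metabolism, moved the other way, from 1854, 1937, 1927 and 1809 to 1519, 1411, 1493 and 1369, a log2 fold change of -0.38. SLC25A44, a carrier of branched-chain amino acids, fell from 2035, 2055, 2128 and 2173 to 1512, 1469, 1613 and 1452 (-0.47, SE 0.039). SLC25A20, which exchanges acylcarnitines for carnitine in fatty acid oxidation, fell from 672, 640, 615 and 711 to 480, 487, 492 and 490 (-0.43, SE 0.053). None of these groups overlapped. Of the glutathione carriers, SLC25A40 fell from 2150.2 ± 51.5 to 1749 ± 62.4 (-0.30), and SLC25A39 had 7807 ± 99.2 normalized counts with DMSO and 8097 ± 174 in DTHIB (SD, n = 4), a log2 fold change of 0.05 that did not pass (limma adjusted p = 0.0955) but did under TMM rescaling (0.07), quantile normalization (0.09), edgeR and DESeq2 and without DTHIB replicate 2. The glycine carrier SLC25A38, needed for heme synthesis, and the choline carrier SLC25A48 had log2 fold changes of -0.09 and -0.18 that did not pass, although SLC25A38 did without DMSO replicate 3 (-0.11) or DTHIB replicate 1 (-0.12) and SLC25A48 under quantile normalization (-0.28).

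**Figure D3:**
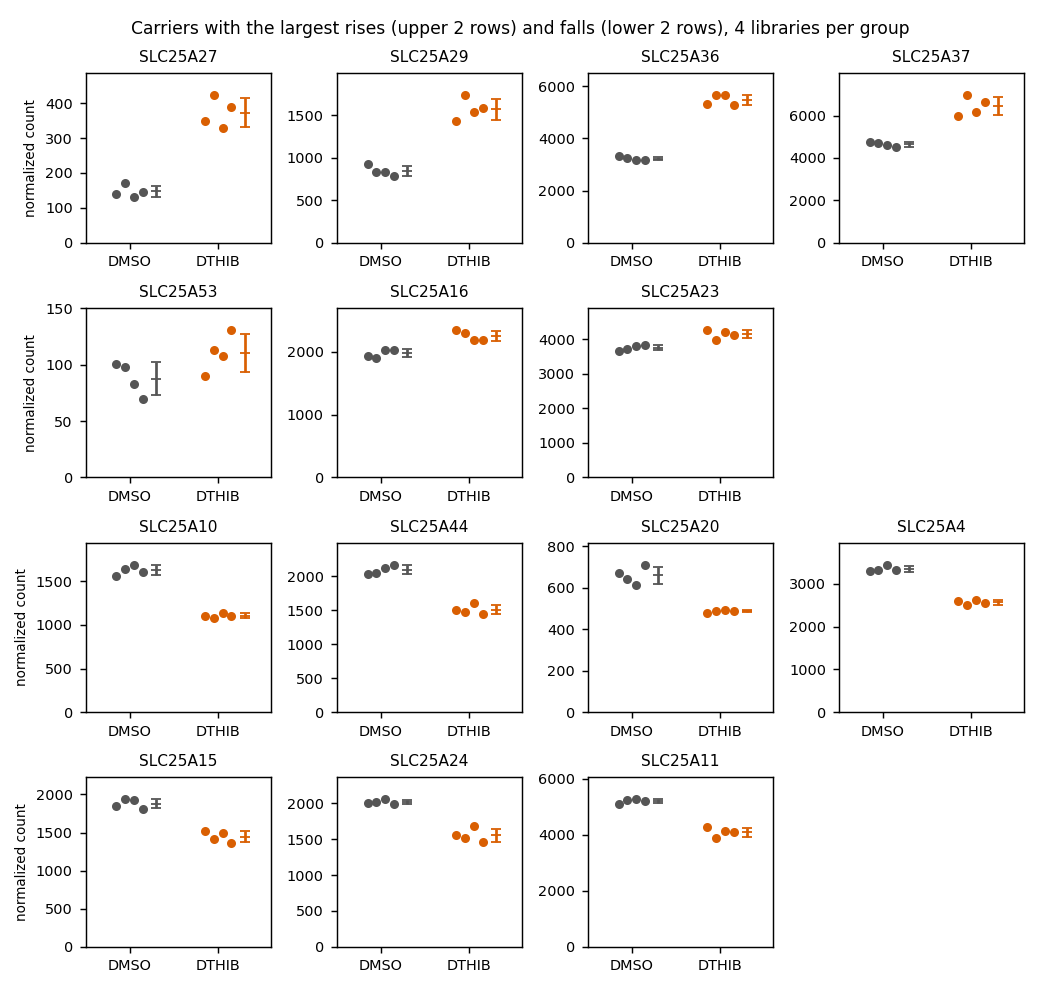
Normalized counts (vertical axes from 0) of the 7 carriers that rose, in the upper 2 rows, and of 7 of the 8 largest falls with a mean of at least 50, in the lower 2 rows; points are single libraries and bars the mean ± SD of 4. Only SLC25A53, the least abundant carrier drawn, has DMSO and DTHIB values that overlap.

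Among carriers of cofactors and pyrimidine nucleotides 3 of 9 tested fell and 2 rose, beside 33.7% and 31.0% of all genes. SLC25A36, a mitochondrial pyrimidine nucleotide carrier, rose from 3309, 3234, 3177 and 3164 to 5327, 5649, 5647 and 5271, a log2 difference of 0.76 (SE 0.032; limma adjusted p = 1.6e-12). Its paralog SLC25A33 had 6224 ± 275 in DMSO and 5927 ± 260 in DTHIB (SD, n = 4), which overlapped; its log2 fold change of -0.07 passed only without DMSO replicate 2 or DTHIB replicate 3. SLC25A16, a carrier linked to coenzyme A, rose from 1937, 1907, 2024 and 2036 to 2350, 2296, 2197 and 2193 (0.19). SLC25A42, a coenzyme A carrier, and SLC25A17, a peroxisomal carrier of coenzyme A and flavin and nicotinamide nucleotides, fell, from 555 ± 9.85 to 446 ± 18.1 (-0.32) and from 1630.4 ± 17.4 to 1339 ± 61.7 (-0.28). The S-adenosylmethionine carrier SLC25A26 and the NAD carrier SLC25A51 had log2 fold changes of 0.08 each and did not pass; SLC25A26 was within 532 to 540 in the DMSO libraries and spread from 531 to 632 with DTHIB.

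SLC25A32, the mitochondrial folate and FAD carrier, had only 27.8, 24.9, 24.1 and 27.1 normalized counts in the DMSO libraries and 34.4, 29.2, 26.0 and 18.0 with DTHIB. In GENCODE 29, 80.8% of its exonic bases (chromosome 8, 103398635 to 103415189) are shared with exons of other genes, 69.7% with the same-strand transcript model AC012213.5, which is listed at 0 in every library. How reads that fall on several genes were counted was not given in the sources used here, and the log2 fold change of 0.01 (SE 0.21) covers only reads that were assigned to this gene. The mitochondrial enzymes that use the carried folates, SHMT2 and ALDH1L2, had log2 fold changes of 0.67 and 1.35.

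Mitoferrins bring iron into the matrix for heme and iron-sulfur cluster synthesis. SLC25A37 (mitoferrin-1) had 4733, 4692, 4606 and 4514 normalized counts with DMSO and 5998, 6950, 6180 and 6647 with DTHIB. The DTHIB libraries varied more but all lay above the DMSO libraries, with a log2 difference of 0.47 (SE 0.040; limma adjusted p = 1.6e-08). SLC25A28 (mitoferrin-2) had 346 ± 14.1 and 361 ± 29.3 (SD, n = 4) and did not pass.

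The uncoupling protein branch groups carriers related to the brown fat uncoupler UCP1. Members with a UCP symbol, such as UCP1 and UCP3, fall outside the symbol rule and are not among the 43. UCP3, counted with the other transporters below, had a log2 fold change of -0.25 that did not pass (limma adjusted p = 0.414). SLC25A27 (UCP4, known mainly from brain; chromosome 6, 46652915 to 46678193) had 141, 170, 132 and 146 normalized counts with DMSO and 349, 422, 329 and 389 with DTHIB. The lowest DTHIB library stood far above the highest DMSO library, and the fold change was 2.51 on the log2(value + 1) scale (log2 1.33, SE 0.094; limma adjusted p = 1.8e-09). SLC25A30 fell from 1760 ± 75.1 to 1405 ± 32.1 (SD, n = 4; -0.32), and SLC25A14 (UCP5) had a log2 fold change of -0.14 that passed only without DTHIB replicate 4 (adjusted p = 0.0466).

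For the remaining carriers the transported substrate is not settled, or, as for the outer membrane protein SLC25A46, the best known role is in membrane dynamics. Of 6 tested, SLC25A35 fell from 833 ± 59.4 to 656 ± 21.6 (-0.34) and so did SLC25A34 (-0.77, SE 0.25; limma adjusted p = 0.0119), which had only 23.8 ± 2.19 and 14 ± 4.16 normalized counts (SD, n = 4). The outer membrane protein SLC25A46 had 1644 ± 71.6 and 1610 ± 43.9, SLC25A45 had 637 ± 33.8 and 667 ± 31.6, and SLC25A43 had 774 ± 17.7 and 727 ± 13.8; none of these passed, although the SLC25A43 values of the groups did not overlap. SLC25A53 had 101, 97.6, 83.0 and 69.1 in DMSO and 89.6, 113, 108 and 131 with DTHIB. These values overlapped; the rise (0.33, limma adjusted p = 0.0479) was lost in 5 of 8 fits without 1 library (without DMSO replicate 3 or 4, or DTHIB replicate 2, 3 or 4; adjusted p up to 0.168), with the replicate number as a block (adjusted p = 0.0682), with no filter (0.0532), with DESeq2 (adjusted p = 0.054) and under quantile normalization (adjusted p = 0.172). In the authors' deposited table, 24 of the 27 changed carriers had an adjusted p under 0.05, all in the same direction, and SLC25A21, SLC25A34 and SLC25A53 did not.

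Levels can be set against each other per kilobase of exon (GENCODE 29 basic transcripts). The length joins the exons of all basic transcripts of a gene, 1274 bases for SLC25A5 and 6856 for SLC25A3. It can exceed that of the transcript expressed, and the places, shares and sums below depend on it. By count alone, SLC25A3 had 17399 ± 325 in DMSO and SLC25A5 17090 ± 603 (SD, n = 4). SLC25A5 stood highest in DMSO with 13414 ± 473 normalized counts per kb (SD, n = 4 in all values per kb), followed by SLC25A39 with 4749 ± 60.3, SLC25A1 with 3081 ± 45.3, SLC25A11 with 2742 ± 40.9 and SLC25A3 with 2538 ± 47.4; the DMSO values of each did not overlap with those of the next, whereas those of SLC25A15 (1186 ± 38.4) and SLC25A13 (1132 ± 27.0) did. Among the 43 carriers SLC25A5 made up 31.3% of the summed level per kb in DMSO and 27.9% in DTHIB. The sums, shares and places leave out SLC25A6, whose level was not measured, and take SLC25A32 only by the reads assigned to it. The summed level of the 43 carriers was 42221 to 43826 per kb in the DMSO libraries and 36789 to 39181 in DTHIB. With SLC25A5 left out it was 29197 to 29731 against 26902 to 27732. Summed without regard to length, the normalized counts differed less, with 108260 to 111954 in the DMSO libraries and 101731 to 106101 in DTHIB. These sums were 0.368% to 0.375% and 0.357% to 0.364% of all normalized counts. In DTHIB SLC25A3 took the third place, SLC25A36 moved from place 20 to 12, SLC25A29 from 35 to 24 and SLC25A37 from 11 to 7. SLC25A27 stayed at place 36 in spite of its rise, with 49.3 ± 5.47 and 125 ± 13.9 per kb.

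**Figure D4:**
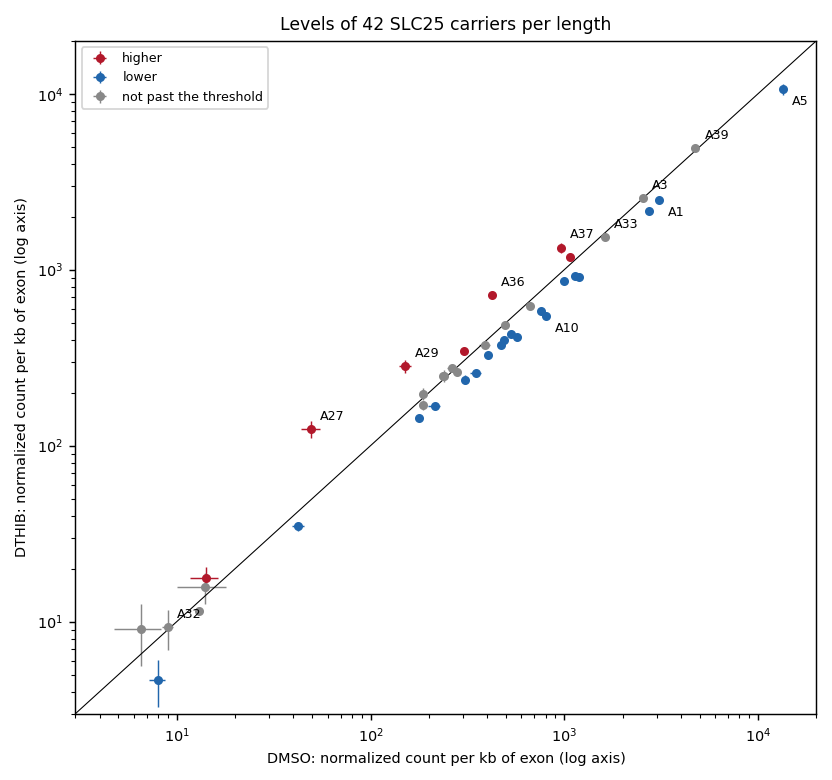
Normalized count per kilobase of exon in DTHIB against DMSO for 42 carriers, on log axes; points are means and bars SDs of 4 libraries, and the line marks equal levels. SLC25A5 (A5) is highest and below the line, and SLC25A27 (A27) and SLC25A29 (A29) lie farthest above it among the labelled carriers.

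Paralogs that carry the same substrate were compared within each library, as the log2 ratio of the 2 normalized counts. Of 11 pairs, 8 had both genes above the limit, and the difference of the ratio between groups was tested by a two-sided exact permutation test over the 8 libraries, adjusted over the 8 pairs; with 4 libraries against 4 the smallest p is 0.0286. In 5 pairs the ratio shifted without overlap between groups, each with exact p = 0.0286 (adjusted p = 0.0457). Of all single genes 57.9% did not overlap, and how often pairs of other genes shift was not tested. SLC25A33 relative to SLC25A36 shifted by -0.83, from a log2 ratio of 0.95 ± 0.086 to 0.11 ± 0.048 (SD, n = 4). SLC25A23 relative to SLC25A24 shifted by 0.52, and SLC25A25 relative to SLC25A24 by 0.32. SLC25A28 relative to SLC25A37 shifted by -0.41, and SLC25A39 relative to SLC25A40 by 0.35. For the adenine nucleotide carriers the ratio of SLC25A4 to SLC25A5 was -2.35 ± 0.026 in DMSO and -2.39 ± 0.070 in DTHIB (SD, n = 4), a difference of -0.04 (exact p = 0.343, adjusted p = 0.392), and for SLC25A12 to SLC25A13 the difference was -0.0076 (exact p = 0.8, also when adjusted). SLC25A18 to SLC25A22 differed by 0.40, within the spread of the low SLC25A18 counts (exact p = 0.143, adjusted p = 0.19).

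**Figure D5:**
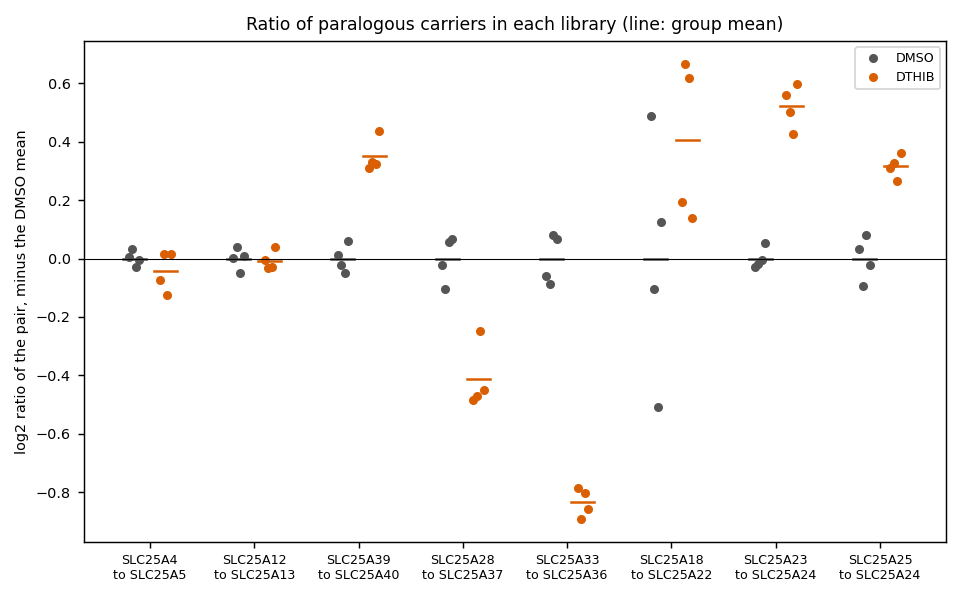
Log2 ratio of each paralog pair in each library, minus the mean of its DMSO libraries; points are libraries and lines group means of 4. The DTHIB points of SLC25A33 to SLC25A36 lie lowest, around -0.83, while those of SLC25A4 to SLC25A5 and SLC25A12 to SLC25A13 overlap with DMSO.

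Several carriers share exons with other genes, and the strand setting of the counting was not given in the sources used here. In GENCODE 29, 12 tested carriers share over 10% of their exonic bases. Without them 7 of 31 carriers rose and 13 fell. SLC25A10 shares 46.6% with the same-strand model AC139530.2, which held 1 read. SLC25A21 shares 28.8%, partly with SLC25A21-AS1, which rose from 118 ± 16.3 to 162 ± 14.7 (limma adjusted p = 0.00152) while SLC25A21 was lower. SLC25A25-AS1 rose from 155 ± 12 to 292 ± 54.7 (limma adjusted p = 1.9e-06) beside a SLC25A25 that did not pass, and SLC25A5-AS1 from 147 ± 15.2 to 184 ± 20.3 (limma adjusted p = 0.0119) while SLC25A5 fell. Without strand, reads from a gene and its antisense partner cannot be told apart. SLC25A5 also has 9 pseudogenes in the table, with 407 reads in all against 123472 for SLC25A5.

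Other mitochondrial genes were counted in lists drawn up by function. Of 26 tested transporters of the mitochondrial membranes outside the symbol rule, 17 fell and 6 rose (median log2 fold change -0.23), where 33.7% of all genes fell and 31.0% rose, a background that holds for the next lists too; only 3 rose without DMSO replicate 2 or without DTHIB replicate 1. The outer membrane channel VDAC3 fell from 4973 ± 135 to 3476 ± 104 normalized counts (SD, n = 4 here and below), the serine carrier SFXN1 from 6160 ± 32.2 to 4340 ± 212, the calcium uniporter pore MCU from 1401 ± 59.0 to 954 ± 45.0, and MTCH1, an outer membrane protein of the carrier fold, from 6631 ± 76.1 to 5271 ± 137. Of 14 tested genes of the route that imports carriers, 6 fell and 2 rose (median -0.08; 4 and 4 under quantile normalization), with the import channel TOMM40 at -0.50, the small chaperones TIMM8A and TIMM10 at -0.41 and -0.40 and TOMM7 at 0.30. Of 39 enzymes that share substrates with the carriers, 13 rose and 17 fell (median 0.0032), but 18 rose and 12 fell under quantile normalization. Their smallest adjusted p-values belonged to rises: the mitochondrial phosphoenolpyruvate carboxykinase PCK2 had a log2 fold change of 1.46, the arginase ARG2 of 1.3, ALDH1L2 of 1.35 and SHMT2 of 0.67.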

How the data were processed

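RNA of C4-2 cells was sequenced in 4 DMSO and 4 DTHIB libraries, with groups taken from the labelled treatment. The submitters' processing notes name the build GRCh38 and the tools DESeq2 2.11.40.2, featureCounts 1.6.3, HISAT2 2.1.0, StringTie 1.3.4 and Trimmomatic 0.36.5. Their order, settings, annotation release, strand mode and handling of multi-mapping reads were not given in the sources used here. Per the file headers and name, the signal the authors deposited is a DESeq2-normalized count per gene and library. A second table deposited by the authors holds their own DESeq2 test: per gene a mean (a signal), the log2 fold change, signed as DTHIB minus DMSO, with its standard error, the Wald score and the p-value, raw and adjusted.

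In each column 100% of values were whole multiples of 1 step within 0.01, so reads could be recovered for alternatives: 27229291 to 30926053 per library. Symbols matched 41967 of 58884 identifiers. The fit used limma 3.58.1 (R 4.3.3) on log2 of the deposited normalized count plus 1 (eBayes with trend, two-sided, no covariates) over 17194 genes with a mean of at least 10, with Benjamini-Hochberg adjustment at 0.05; this scale understates changes of low genes. Tested on simulated data with few changed genes, the fit made more false calls than its threshold allows and recovered small changes less often than large ones. Alternatives were pseudocounts, filters, TMM, quantile normalization, edgeR 4.0.16, DESeq2 1.42.0, a block for the replicate number, leaving out each library, and, added after seeing the data, removal of a length and GC trend and of carriers sharing exons. Replicates differed by more than sampling noise (chi-square per gene 2.39 to 5.21 within groups).

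Members and lists were chosen with earlier results of these data known. Values in every library are given for the 8 largest rises and falls among changed carriers with a mean of at least 50 (7 rose), for SLC25A3 and for the adenine nucleotide carriers. The values of 1 of these carriers are not reported here, although the counts include it. From each other list up to 4 genes with the smallest adjusted p are named.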

Additional observations from a re-analysis of the deposited data

Results flagged for a closer look

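In 4 of 86 groups of 4 libraries 1 value stood apart from the other 3 by more than a chance limit that about 1 in 20 groups passes. SLC25A4 had 3450 normalized counts in DMSO replicate 3 against 3306 to 3328 in the other DMSO libraries. SLC25A43 had 801 in the same library against 765 to 767. SLC25A45 had 620 in DTHIB replicate 3 against 679 to 689, and SLC25A51 had 506 in DTHIB replicate 1 against 462 to 466. Of these carriers only SLC25A4 changed between groups, and it passed in all 8 fits without 1 library.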

How the results depend on the processing

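Of the 27 changed carriers 25 kept their call in all 18 alternative fits that tested them, none turned direction, and SLC25A21 and SLC25A53 lost it in some. Without 1 library 6 to 7 carriers rose and 20 to 21 fell; with carriers sharing exons left out 13 fell, since fewer were counted. Rises in the import list went from 2 to 4 under quantile normalization (the cause was not tested), and those of the other transporters were 3 to 5 without 1 library. Uncalled log2 fold changes near 0 changed sign: under quantile normalization SLC25A33 (0.013), SLC25A38 (0.0052), SLC25A46 (0.062), SLC25A32 (-0.12), SLC25A25 (0.026) and SLC25A3 (-0.012); after removal of the length and GC trend SLC25A33 (0.0077), SLC25A46 (0.015) and SLC25A45 (-0.022); without 1 library SLC25A32 (-0.11 to 0.19) and SLC25A3 (-0.0026 to 0.029). The replicate numbers did not pair the libraries (correlations of same-numbered deviations -0.07 to 0.01); with the replicate block 6 carriers rose and 20 fell. For the paralog ratios, exact p cannot go below 0.125 within blocks or 0.0571 without 1 library, so only their values were compared, and these moved by less than the replicate SD, SLC25A12 to SLC25A13 with a change of sign. Carriers under 1000 reads in all are limited by depth.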
